A study of Mus musculus with 8 samples.

Results

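The genes described here are 43 genes of glycolysis, lactate formation, pyruvate entry and the TCA cycle, taken by name from a fixed list and found in all cases among the 36047 genes with transcripts in the data. Their 22 steps fall into glycolysis and lactate (20 genes), pyruvate entry into the mitochondrion (11 genes) and the TCA cycle (12 genes). RNA was measured in muscle stem cells (MuSCs) of 3 mice fed a diet without vitamin A (VA-free) for 8 weeks and 2 mice that stayed on normal chow (control), so the diets may have differed in more than vitamin A. All 5 mice were males of 5 to 6 months that carried Pax7CreERT2 and Rosa26nTnG. In these animals tamoxifen switches on nuclear GFP in cells with an active Pax7 promoter, and nuclear GFP-positive cells were sorted from gastrocnemius and quadriceps muscle. The RNA of a mouse had been divided into portions A and B before column purification. Of the VA-free mice, mouse 1 gave library 1B, mouse 2 gave 2A and mouse 3 gave both portions, and both control mice gave both portions, which made 8 libraries. Counts of a mouse's libraries were added before the diets were compared.

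Glycolysis converts glucose to pyruvate in the cytosol and yields ATP and NADH. Lactate dehydrogenase turns pyruvate into lactate and back, while the mitochondrial pyruvate carrier and the pyruvate dehydrogenase complex bring pyruvate into the TCA cycle as acetyl-CoA. Quiescent MuSCs have few mitochondria and a low metabolic rate, and both pathways are known to be remodelled when MuSCs leave quiescence. Many steps are catalysed by isozymes that are encoded by separate genes and differ between tissues, such as the muscle forms Pgam2 and Eno3.

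RefSeq promoters of GRCm38.p6, which cover 250 bases before to 50 bases after a start, were found for 41 of the 43 genes. They were searched on both strands for ACGTG (the core of the hypoxia response element), CACGTG (the E-box, which contains ACGTG on both strands) and AGGTCA (a single binding site of nuclear receptors). ACGTG was present in 18 of the 41 genes (43.9%) and in 21.8% of all 27025 genes with a promoter. The share was 14.6% against 8.09% of all genes for CACGTG, and 29.3% against 18.1% for AGGTCA. A gene counted if any of its promoters matched, and the 41 genes had 61 promoters. Counted per promoter, ACGTG was in 26 of the 61 and in 19.6% of all 32851 promoters. CACGTG was in 8 of the 61 against 7.15%, and AGGTCA in 13 against 16.3%. The promoters of both lactate dehydrogenase genes are shown because Ldhb was lower and Ldha did not pass the test, and that of Pdk4 because it had the largest rise among the 43 genes. Capitals mark matches to any of the 3 motifs.
Ldha, chr7:46845554-46845853, plus strand: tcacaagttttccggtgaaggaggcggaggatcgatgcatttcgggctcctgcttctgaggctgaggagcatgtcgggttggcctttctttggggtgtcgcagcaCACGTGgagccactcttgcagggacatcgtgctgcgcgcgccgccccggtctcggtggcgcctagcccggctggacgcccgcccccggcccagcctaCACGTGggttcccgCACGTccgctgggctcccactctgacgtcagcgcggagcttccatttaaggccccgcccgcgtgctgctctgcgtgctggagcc
Ldhb, chr6:142507908-142508207, minus strand: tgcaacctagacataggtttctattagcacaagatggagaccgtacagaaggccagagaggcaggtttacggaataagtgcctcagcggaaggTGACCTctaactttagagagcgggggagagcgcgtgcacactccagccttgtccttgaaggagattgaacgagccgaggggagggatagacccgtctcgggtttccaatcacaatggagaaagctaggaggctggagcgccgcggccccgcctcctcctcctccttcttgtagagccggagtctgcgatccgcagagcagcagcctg
Pdk4, chr6:5496229-5496528, minus strand: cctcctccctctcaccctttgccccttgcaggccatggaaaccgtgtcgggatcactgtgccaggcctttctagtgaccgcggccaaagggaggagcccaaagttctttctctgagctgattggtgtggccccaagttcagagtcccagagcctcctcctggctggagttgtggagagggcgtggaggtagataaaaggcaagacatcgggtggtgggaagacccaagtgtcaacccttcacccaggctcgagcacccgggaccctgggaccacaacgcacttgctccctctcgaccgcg
The upstream promoter of Ldha held 2 copies of CACGTG and 1 further match to ACGTG, that of Ldhb held 1 copy of AGGTCA on the opposite strand, and that of Pdk4 held none of the 3. A second start listed for Ldha held none either. These matches describe the letters of the windows only.

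The estimated counts of a library summed to between 44831232 and 88650428. The portions 2A and 2B of control mouse 2 stood apart from each other, and 13 of the 43 genes differed by more than 2-fold between them. No gene of the 43 did so between the libraries of control mouse 1 or of VA-free mouse 3. Of 12 MuSC markers, 11 were higher on the VA-free diet, and their summed level was between 6477 and 7492 CPM (counts scaled to a common library total) in the VA-free mice and 3633 and 3728 CPM in the control mice. All 8 endothelial markers were lower, with sums of 265 to 336 CPM on the VA-free diet and 1869 to 4232 CPM in the control mice. The 5 Schwann cell markers, summed to 32 to 38.9 CPM against 378 to 590.4 CPM, were lower too, as were the 4 tenocyte markers, summed to 22.5 to 47.9 CPM against 687 to 1061 CPM. Of 16 myofiber markers 9 were lower and none was higher, and their sum was 439 to 565 CPM against 675 to 771 CPM. Of 9 markers of fibro-adipogenic progenitors 6 were lower and 1 higher, with a median log2 fold change of -3.54. Their sum went the other way, at 16275 to 18504 CPM against 11138 to 12608 CPM, and does not stand for most of these markers. Fewer lower calls were found for macrophages (3 of 8 markers, 24.6 to 130.2 CPM against 183 to 688 CPM) and pericytes and smooth muscle (3 of 7, with 1 higher, 1650.3 to 1847 CPM against 2465 to 3000.0 CPM), and 4 of 5 erythroid markers were lower (29.5 to 244 CPM against 1568 to 1628 CPM). No marker was at 0 in any library except 1 of the macrophage list. The part of these cells in the levels below was not tested, and fewer cells of a type cannot be told apart from less RNA per cell in such samples.

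All 43 genes passed the filter on low counts and were tested with 17997 genes in edgeR's quasi-likelihood fit with Benjamini-Hochberg adjustment. On the VA-free diet 6 of the 43 were higher, 16 were lower and 21 did not pass an adjusted p of 0.05. Among all genes tested 18.9% were higher and 22.5% were lower. The falls included both subunits of the mitochondrial pyruvate carrier, both malate dehydrogenases, Ldhb and the muscle forms Pgam2 and Eno3. The rises were Hk1, Pfkp, Pdk4, Cs, Ogdh and Dlst. The median log2 fold change (VA-free over control) was -0.31 for glycolysis and lactate, -0.08 for pyruvate entry and -0.16 for the TCA cycle, beside 0.00 for all genes tested. All VA-free mice lay on one side of both control mice for 34 of the 43 genes, and for 63.3% of all genes tested. With TPM in place of counts the split turned to 8 lower and 20 higher, a setting in which the median of all genes moved to 0.192 on the log2 scale with a pseudocount of 1. With TPM the calls of Pfkl, Pfkfb3, Tpi1, Eno1, Pdhb, Idh3g, Suclg1, Sucla2 and Mdh2 were lost. TPM with TMM scaling gave 16 lower and 8 higher. None of the 22 called genes changed sign under any of 23 alternatives, and 8 of them (Pfkp, Pgam2, Eno3, Ldhb, Mpc1, Pdk4, Cs and Mdh1) passed under each, except that the filter of 10 CPM left out Pgam2. Only 2 animals stand for the control diet, so its spread is a single difference.

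**Figure D1:**
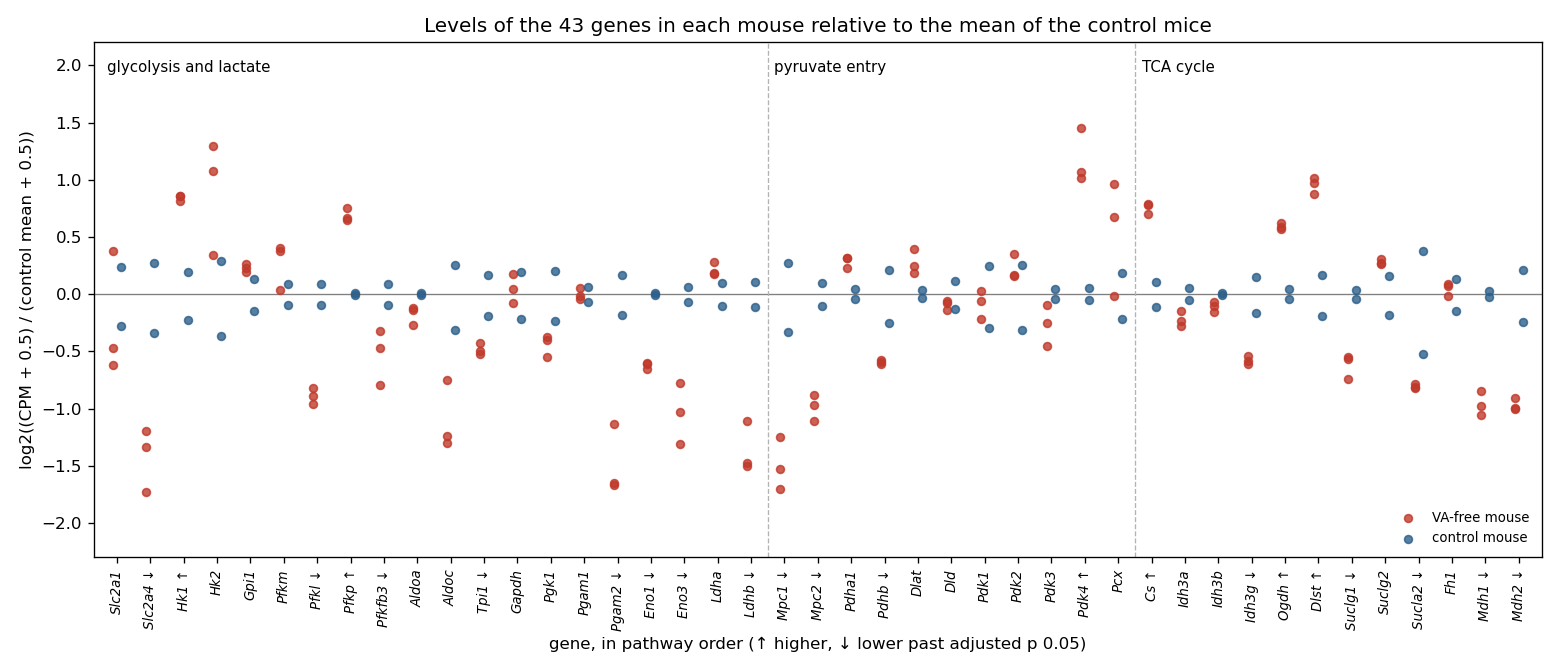
Each point is 1 mouse, plotted as the log2 ratio of its CPM + 0.5 to the mean of the 2 control mice + 0.5 (y axis) for the 43 genes in pathway order (x axis), with arrows for the 6 genes that were higher and the 16 that were lower past an adjusted p of 0.05. Points of the VA-free mice lie below both control points for Ldhb, Mpc1, Mpc2, Mdh1 and Mdh2 and above them for Hk1, Pfkp, Pdk4, Cs and Dlst.

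At the entry of glucose, the insulin-responsive transporter Slc2a4 (GLUT4) was lower and the ubiquitous transporter Slc2a1 (GLUT1) did not pass the threshold. Slc2a4 was at 5.49, 6.12 and 4.06 CPM in VA-free mice 1, 2 and 3 and at 17.8 and 11.5 CPM in control mice 1 and 2. This was a 2.81-fold lower level (log2 fold change -1.49 ± 0.27 SE, Benjamini-Hochberg adjusted p = 0.00486 by edgeR quasi-likelihood). The mice did not overlap, but control library 2A, at 4.41 CPM, lay within the VA-free libraries (3.96 to 6.1 CPM) and its partner 2B was at 18.7 CPM. In the fit without library 2B the call was lost (log2 fold change -1.11). Slc2a1 was at 52.1, 104 and 57.8 CPM in the VA-free mice and at 94.4 and 66 CPM in the control mice, with 1 VA-free mouse above both controls and the others below.

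Hk1, the hexokinase bound to mitochondria that traps glucose as glucose 6-phosphate, rose 1.80-fold. It was at 582, 600.0 and 601 CPM in the VA-free mice and at 379 and 282 CPM in the control mice (log2 fold change 0.85 ± 0.15 SE, Benjamini-Hochberg adjusted p = 0.00483 by edgeR quasi-likelihood). Within control mouse 2 the libraries read 135 CPM in 2A and 431 CPM in 2B, and all 4 VA-free libraries (569 to 599 CPM) were above both. The call was lost in the fit without 2B (log2 fold change 1.19) and in that without the length trend (0.44). Hk2, the inducible hexokinase, had a log2 fold change of 0.98 ± 0.34 SE and missed the threshold (Benjamini-Hochberg adjusted p = 0.055 by edgeR quasi-likelihood). It was at 8.47 to 27.9 CPM over the 5 mice. Gpi1, which isomerises glucose 6-phosphate to fructose 6-phosphate, did not pass (log2 fold change 0.24).

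The phosphofructokinase genes, whose products catalyse the committed step of glycolysis, split. Pfkp, the platelet form, was at 206, 208 and 221 CPM in the VA-free mice and at 132 and 130.1 CPM in the control mice. It was 1.61-fold higher (log2 fold change 0.69 ± 0.11 SE, Benjamini-Hochberg adjusted p = 0.00264 by edgeR quasi-likelihood). Counts of protein-coding transcripts alone gave a log2 fold change of 0.44, which still passed. Pfkl, the liver form, was lower with a log2 fold change of -0.90 ± 0.11 SE (Benjamini-Hochberg adjusted p = 0.00121 by edgeR quasi-likelihood) and lay between 48.6 and 53.4 CPM against 88.7 and 101 CPM. Pfkm, the muscle form, did not pass (log2 fold change 0.29) and its mice overlapped. Pfkfb3, which makes the phosphofructokinase activator fructose 2,6-bisphosphate, was at 30.2, 24.1 and 33.5 CPM in the VA-free mice and at 44.7 and 39.5 CPM in the control mice. Its fall of 1.44-fold (log2 fold change -0.52 ± 0.17 SE, Benjamini-Hochberg adjusted p = 0.0431 by edgeR quasi-likelihood) was lost under 10 of 23 alternatives, and control library 2A at 29 CPM lay among the VA-free libraries.

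In the middle of glycolysis, Tpi1 was the only called gene from aldolase to phosphoglycerate kinase. Tpi1, the isomerase that interconverts the triose phosphates, was at 130.0, 139 and 132 CPM in the VA-free mice and at 210.1 and 163 CPM in the control mice. It was 1.39-fold lower (log2 fold change -0.48 ± 0.14 SE, Benjamini-Hochberg adjusted p = 0.0285 by edgeR quasi-likelihood), and 9 of 23 alternatives did not keep the call. Control library 2A at 137 CPM overlapped the VA-free libraries. Near-identical copies, which Gapdh has in large number, were not counted in TPM. On that basis Aldoa, the main aldolase of muscle, was the most abundant of the 43 genes per length (1248 TPM on the VA-free diet, 1021 TPM in control). It was at 858, 956 and 941 CPM against 1029 and 1045 CPM. Its log2 fold change of -0.18 ± 0.12 SE did not pass. Aldoc, the brain aldolase, was under 1 CPM in every mouse and did not pass (log2 fold change -3.01 ± 1.23 SE). Gapdh, the glyceraldehyde 3-phosphate dehydrogenase often used as a reference gene, had a log2 fold change of 0.05 and ranged from 613 to 816 CPM over the mice. Pgk1, the first step that makes ATP, was at 126 to 143 CPM against 157 and 213 CPM and missed the threshold (log2 fold change -0.44, Benjamini-Hochberg adjusted p = 0.0597 by edgeR quasi-likelihood).

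At the lower steps the muscle forms fell while the mutase form Pgam1 showed no call. Pgam2, the muscle phosphoglycerate mutase, was at 4.82, 3.19 and 3.22 CPM in the VA-free mice and at 12.6 and 9.79 CPM in the control mice. This was 2.99-fold lower (log2 fold change -1.58 ± 0.27 SE, Benjamini-Hochberg adjusted p = 0.00367 by edgeR quasi-likelihood), with no overlap of libraries. Pgam1, the form of most tissues, was at 149.6, 152 and 159.6 CPM against 147 and 161 CPM, so that the diets overlapped (standard error of the log2 fold change 0.11). Eno3, the muscle enolase, was at 16.3, 19.5 and 13.3 CPM in the VA-free mice and at 32.3 and 35.3 CPM in the control mice. It was 2.07-fold lower (log2 fold change -1.05 ± 0.19 SE, Benjamini-Hochberg adjusted p = 0.00444 by edgeR quasi-likelihood). Eno1, the enolase of most cells, was at 264, 274 and 271 CPM against 417 and 413 CPM and was 1.54-fold lower (log2 fold change -0.62 ± 0.10 SE, Benjamini-Hochberg adjusted p = 0.00354 by edgeR quasi-likelihood). All VA-free libraries were below all control libraries for both enolases.

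Of the lactate dehydrogenase genes, 1 was lower and the other did not pass. Ldhb, whose subunit favours the conversion of lactate to pyruvate, was at 50.2, 64.8 and 49.1 CPM in the VA-free mice and at 129.6 and 151 CPM in the control mice. It was 2.57-fold lower (log2 fold change -1.36 ± 0.16 SE, Benjamini-Hochberg adjusted p = 0.000843 by edgeR quasi-likelihood), and the highest VA-free library (64.6 CPM) was below the lowest control library (102 CPM). Ldha, whose subunit favours lactate formation, was at 865, 862 and 926 CPM against 812 and 709.7 CPM. For Ldha all VA-free mice were above both control mice, but its log2 fold change of 0.22 ± 0.12 SE did not pass the threshold (Benjamini-Hochberg adjusted p = 0.202 by edgeR quasi-likelihood). Under 3 of 23 alternatives Ldha did pass as higher, at 0.44 with the length trend removed and 0.66 with TPM at either pseudocount. It did not pass with TPM after TMM scaling (0.28) or without control library 2A (0.07).

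At the mitochondrial entry of pyruvate, both carrier subunits fell. Mpc1 was at 73.8, 89.6 and 65.5 CPM in the VA-free mice and at 170.2 and 258 CPM in the control mice. This was 2.81-fold lower (log2 fold change -1.49 ± 0.21 SE, Benjamini-Hochberg adjusted p = 0.00174 by edgeR quasi-likelihood). Control library 2A read 409.9 CPM and 2B read 139 CPM, both above every VA-free library, and without 2A the log2 fold change was -1.02. With the length trend removed it was -0.76, and both fits kept the call. Mpc2, the partner subunit, lay between 35.8 and 42 CPM against 72.4 and 83.5 CPM (1.99-fold lower, SE 0.13 on the log2 scale, Benjamini-Hochberg adjusted p = 0.00118 by edgeR quasi-likelihood). Its call was lost with the length trend removed (log2 fold change -0.40).

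Of the 4 subunit genes of the pyruvate dehydrogenase complex, 1 was called. Pdhb, the beta subunit of the decarboxylase, was at 141, 139 and 138 CPM in the VA-free mice and at 177 and 244 CPM in the control mice. Its fall of 1.51-fold (log2 fold change -0.59 ± 0.15 SE, Benjamini-Hochberg adjusted p = 0.0187 by edgeR quasi-likelihood) shrank to a log2 fold change of -0.29 without control library 2A, which read 351 CPM, and then did not pass. Pdha1 (0.29), the transacetylase gene Dlat (0.28) and the dihydrolipoyl dehydrogenase gene Dld (-0.08) had log2 fold changes that did not pass. The alpha and beta subunit genes thus had fitted values of opposite sign, and the difference between them was not tested.

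Pdk4, a kinase that inactivates the pyruvate dehydrogenase complex and is known to be induced by fasting and fatty acids, had the largest rise of the 43 genes. It was at 198, 205 and 267 CPM in the VA-free mice and at 101 and 94 CPM in the control mice. This was 2.29-fold higher (log2 fold change 1.19 ± 0.16 SE, Benjamini-Hochberg adjusted p = 0.00165 by edgeR quasi-likelihood). The lowest VA-free library (193 CPM) was above the highest control library (128 CPM), and the log2 fold change ranged from 0.85 to 1.42 over 23 alternatives, all past the threshold. The log2 fold changes of the related kinases Pdk1 (-0.08), Pdk2 (0.23) and Pdk3 (-0.27) did not pass. Pcx, the carboxylase that makes oxaloacetate from pyruvate, did not pass either (log2 fold change 0.60 ± 0.29 SE), and its libraries 2A and 2B of 1 control mouse read 9.23 and 46.2 CPM.

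In the TCA cycle the rises lay at citrate synthase and at the genes Ogdh and Dlst of the 2-oxoglutarate dehydrogenase complex. Cs, which condenses acetyl-CoA with oxaloacetate, was at 211, 198 and 209.8 CPM in the VA-free mice and at 131 and 113 CPM in the control mice. It was 1.69-fold higher (log2 fold change 0.76 ± 0.12 SE, Benjamini-Hochberg adjusted p = 0.0028 by edgeR quasi-likelihood). Ogdh, the decarboxylase of 2-oxoglutarate, was at 358, 362 and 371 CPM against 249 and 234 CPM and was 1.51-fold higher (log2 fold change 0.59 ± 0.11 SE, Benjamini-Hochberg adjusted p = 0.0052 by edgeR quasi-likelihood). With the length trend removed the log2 fold change of Ogdh was 0.08 and no longer past the threshold, whereas that of Cs was 0.43 and kept its call. Dlst, the succinyltransferase of the same complex, rose, with a log2 fold change of 0.96 ± 0.14 SE (Benjamini-Hochberg adjusted p = 0.00212 by edgeR quasi-likelihood). Its levels were 125 to 138 CPM in the VA-free mice and 59.6 and 76.2 CPM in the control mice, and in the fit without control 2B the value was 1.30 and not past the threshold.

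The falls in the cycle lay at NAD-linked isocitrate dehydrogenase, succinyl-CoA ligase and malate dehydrogenase. Idh3g, a regulatory subunit of isocitrate dehydrogenase, was at 156, 163 and 159 CPM in the VA-free mice and at 264 and 212 CPM in the control mice. It was lower (log2 fold change -0.58 ± 0.13 SE, Benjamini-Hochberg adjusted p = 0.0109 by edgeR quasi-likelihood), and the value was -0.15 with the length trend removed, which did not pass. The catalytic subunit Idh3a (-0.22) and the subunit Idh3b (-0.11) had log2 fold changes that did not pass. Sucla2, the ATP-forming beta subunit of succinyl-CoA ligase, was at 106, 107 and 109 CPM against 131 and 245 CPM (log2 fold change -0.80 ± 0.24 SE, Benjamini-Hochberg adjusted p = 0.0337 by edgeR quasi-likelihood). Here 1 library set the size of the change, since control 2A read 394 CPM and the other control libraries 123 to 129 CPM, and without 2A the log2 fold change was -0.27, which did not pass. Suclg1, the alpha subunit, was lower (log2 fold change -0.61 ± 0.11 SE, Benjamini-Hochberg adjusted p = 0.00517 by edgeR quasi-likelihood), and its value of -0.36 with the length trend removed did not pass. The GTP-forming beta subunit Suclg2 (0.28) and the fumarase gene Fh1 (0.05) did not pass.

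Mdh2, the malate dehydrogenase of the mitochondrion, was at 276, 293 and 275 CPM in the VA-free mice and at 466 and 636 CPM in the control mice. It was 1.96-fold lower (log2 fold change -0.97 ± 0.15 SE, Benjamini-Hochberg adjusted p = 0.00275 by edgeR quasi-likelihood). Control library 2A read 960.2 CPM and the other control libraries 387 to 470.2 CPM, and without 2A the log2 fold change was -0.60, which still passed. Mdh1, the cytosolic form, lay between 153 and 177 CPM against 312 and 324 CPM (log2 fold change -0.96 ± 0.11 SE, Benjamini-Hochberg adjusted p = 0.000965 by edgeR quasi-likelihood). Both forms take part in the malate-aspartate shuttle, which carries reducing equivalents into the mitochondrion.

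Isozymes of a step were compared per length, as shares of their summed TPM, a measure in which the scaling of a library cancels. The trend of the fold changes with transcript length, described below, was not removed from the shares. It can enter where isozymes differ in length, as Pgam2 (765 bases) and Pgam1 (1678 bases) do. Pfkp held 77.2%, 77.3% and 76.7% of the phosphofructokinase TPM in the VA-free mice and 57.5% and 62.1% in the control mice, while Pfkl held 14.7% ± 0.612 (SD, n = 3) against 31.5% ± 2.76 (SD, n = 2). The share of Pfkm overlapped between the diets (8.18% against 8.66%). Ldhb held 7.17%, 9.32% and 6.7% of the lactate dehydrogenase TPM in the VA-free mice and 17.2% and 21.7% in the control mice. Pgam2 held 5.06% ± 1.38 (SD, n = 3) of the mutase TPM against 13.8% ± 2.81 (SD, n = 2). Slc2a4 held 7.9% ± 2.24 of the summed TPM of Slc2a1 and Slc2a4 against 17.6% ± 1.12 on the same numbers of mice, with other glucose transporters left out. Control 2A (7.44%) lay within the VA-free libraries (5.66% to 10.5%) and 2B was at 24.3%, and without 2B the difference for Slc2a4 went from -9.7 to -4.23 percentage points. Pdk4 held 62.2%, 63.1% and 67% of the kinase TPM against 48.5% and 52.2%. Sucla2 held 63.3% ± 0.41 (SD, n = 3) of the beta subunit TPM against 77% ± 8.99 (SD, n = 2), and library 2A was at 90.5%. Without control 2A the difference went from -13.8 to -7.07 percentage points for Sucla2, and from -11.7 to -7.73 for Ldhb. That of Pgam2 went from -8.74 to -4.44 with estimated counts in place of TPM. Eno3 held 6.62% ± 0.676 (SD, n = 3) of the TPM of Eno1 and Eno3 against 8.67% ± 0.393 (SD, n = 2). Near-identical copies of Eno1, which held more counts than Eno1 itself, were left out of this share, as those of Pgam1 were for Pgam2. The shares of Hk2 (2.1% against 2.33%), Mpc2 (28.1% against 23.2%) and Mdh1 (36.9% against 37.6%) overlapped between the diets. Of 25 shares in 11 sets, 18 separated the mice of the diets, each with p = 0.2 in an exact two-sided permutation test, the smallest that 3 mice against 2 allow (0.278 after Benjamini-Hochberg adjustment), so that none could pass 0.05.

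**Figure D2:**
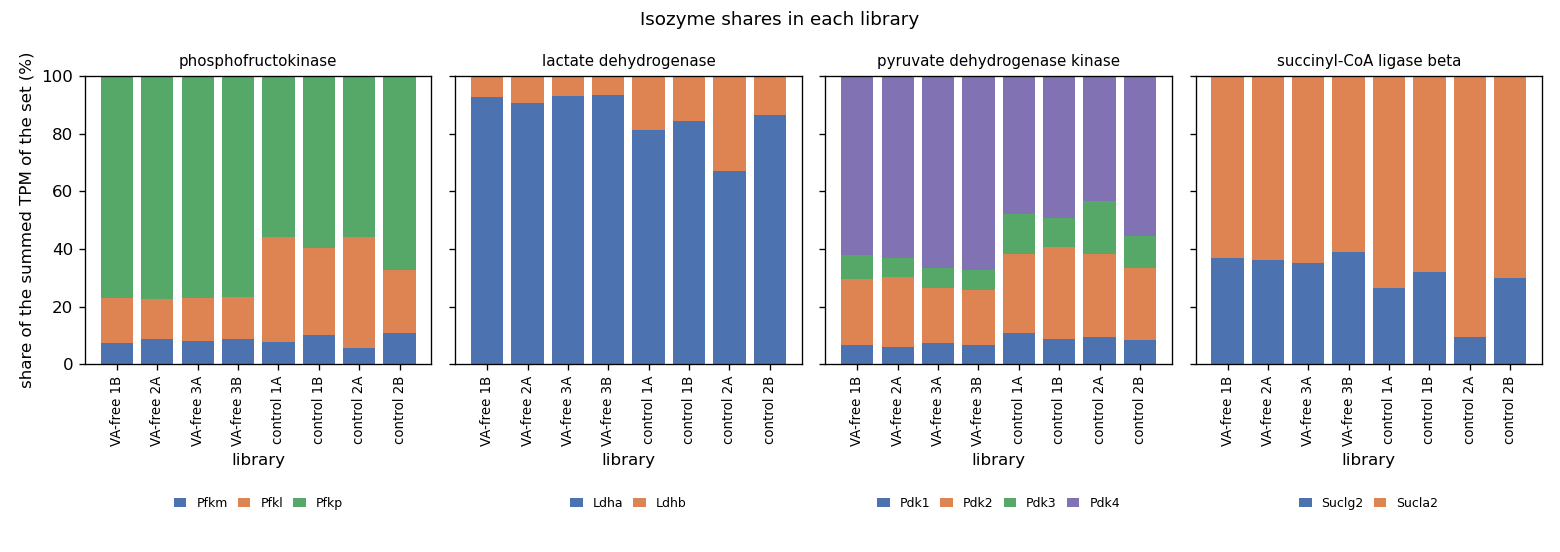
Stacked bars give the share (%) of each isozyme in the summed TPM of its set (y axis) in each of the 8 libraries (x axis) for phosphofructokinase, lactate dehydrogenase, pyruvate dehydrogenase kinase and the beta subunits of succinyl-CoA ligase. Pfkl and Ldhb take a smaller share and Pdk4 a larger share in all 4 VA-free libraries than in any control library, and control 2A has the highest shares of Ldhb (33%) and Sucla2 (90.5%).

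The fold changes of the 43 genes moved with transcript length. Effective lengths ran from 747 to 5036 bases, and the Spearman correlation of log2 fold change with length was 0.73 over the 43 genes and 0.37 over all 17997 genes, given as a description because genes of the same libraries are not independent. All 3 genes under 1000 bases (Mpc1, Mpc2 and Pgam2) were lower, in a length class with a median of -0.70 over all genes. From 1000 to 2000 bases 10 of 21 genes were lower and none was higher, with a median of -0.48 beside -0.27 for all genes. From 2000 to 4000 bases 6 of 18 were higher and 3 lower, with medians of 0.28 and 0.25. Shares of all genes called within a length class were not worked out, so these counts do not set the 43 genes apart from other genes of their length. With the trend of each mouse's values on length removed, 10 genes were lower and 5 higher. The calls of Hk1, Tpi1, Mpc2, Pdhb, Idh3g, Ogdh, Suclg1 and Sucla2 were lost, and Ldha passed as higher (log2 fold change 0.44). Slc2a4, Pfkl and Pfkfb3, the lower genes over 2000 bases, went against the trend, and their log2 fold changes were then -1.56, -1.24 and -0.64. The part of length in the other calls was not tested beyond this fit.

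**Figure D3:**
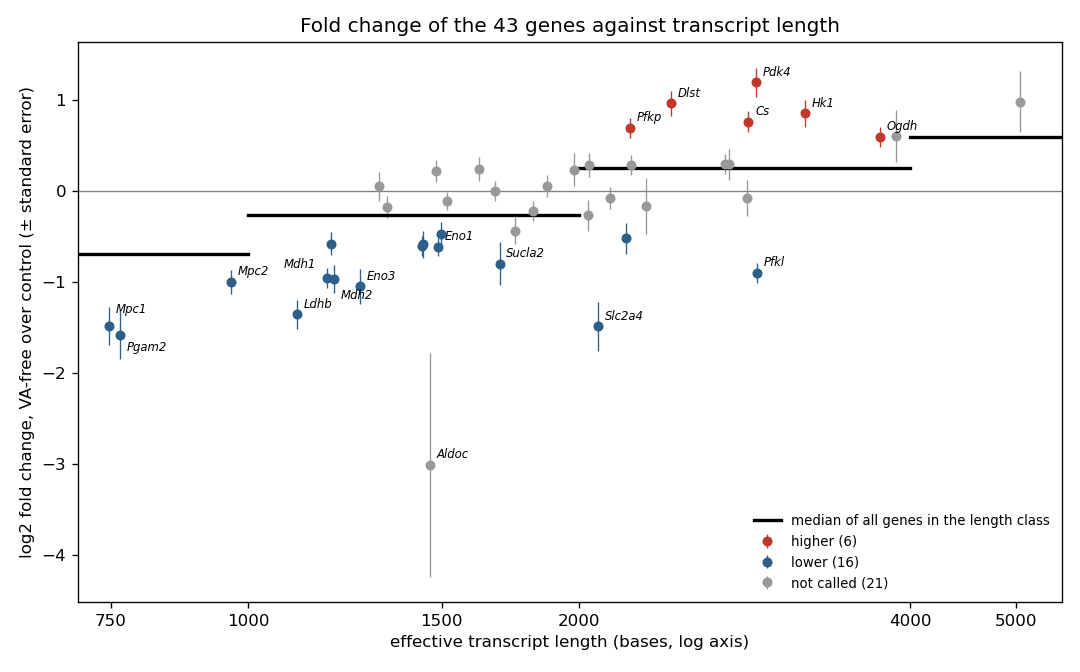
The log2 fold change of each of the 43 genes (y axis, bars are standard errors) is plotted against its effective transcript length in bases (x axis, log axis), with black lines for the median of all genes in each of 4 length classes. The 6 higher genes all lie between 2000 and 4000 bases, 13 of the 16 lower genes lie under 2000 bases, and Slc2a4 and Pfkl lie well below the median of their class.

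Between control libraries 2A and 2B, 23 of the 43 genes differed by more than 1.5-fold, against 1 between 1A and 1B and 0 between VA-free 3A and 3B. The median absolute log2 difference was 0.67, 0.15 and 0.06 in that order. Genes higher in 2A included Sucla2 (394 against 128 CPM), Mpc1 (409.9 against 139 CPM), Mdh2 (960.2 against 387 CPM) and Ldhb (217 against 102 CPM), which were lower on the VA-free diet, but also Idh3a (163 against 101 CPM) and Dld (165 against 103 CPM), which were not called. Genes lower in 2A included Hk1 (135 against 431 CPM), Dlst (29.4 against 90.4 CPM) and Cs (72.4 against 156 CPM), which were higher on the VA-free diet, but also Gapdh (377 against 863 CPM), which was not called, and Slc2a4 (4.41 against 18.7 CPM), which was lower. Leaving out 2A gave 14 lower and 7 higher genes, and leaving out 2B gave 10 lower and 4 higher. Of the 22 called genes, 19 had no overlap between the 4 libraries of each diet, a share near the 86.8% of all called genes, and the exceptions were Slc2a4, Pfkfb3 and Tpi1.

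**Figure D4:**
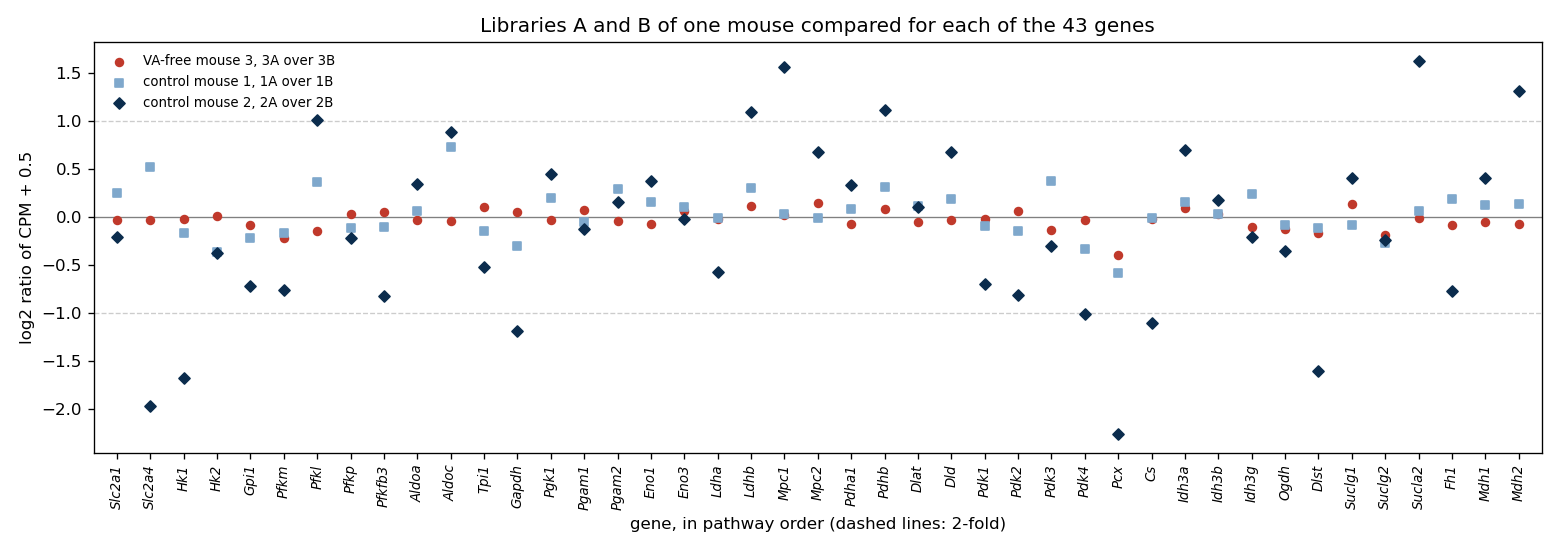
Points give the log2 ratio of CPM + 0.5 between libraries A and B of 1 mouse (y axis) for each of the 43 genes (x axis), with dashed lines at 2-fold. The pairs of VA-free mouse 3 and control mouse 1 stay within 2-fold for all 43 genes, whereas 13 genes lie outside for control mouse 2.

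The transcripts behind the counts also differed. Annotated retained-intron transcripts, which keep an intron and are not translated into the full enzyme, were estimated to hold 4.46% to 4.87% of the counts of the 43 genes in the VA-free libraries and 2.66% to 2.92% in the control libraries. Over all genes the shares were 4.41% to 4.72% and 3.58% to 3.67%. Of 33 genes with such a transcript, 10 had every VA-free library above every control library and 0 had the reverse. Over the 8558 tested genes with such a transcript, 16.8% lay above and 3.2% below in the same way. The share of Pfkl was 19.9% to 24.5% in the VA-free libraries and 5.66% to 12.8% in the control libraries, and that of Pdhb was 11.2% to 13.8% against 2.99% to 5.77%. For Gpi1 it was 13.3% to 17.8% against 2.58% to 9.6%, for Dlst 12.7% to 15.6% against 5.37% to 11.7%, and for Mpc2 8.08% to 9.71% against 3.95% to 5.97%. The abundant genes Aldoa (4.13% to 5.9% against 2.28% to 2.73%) and Gapdh (2.7% to 3.05% against 0.95% to 1.55%) were separated as well, at lower shares. With counts of protein-coding transcripts alone, 15 genes were lower and 7 higher. The log2 fold change was then -1.13 for Pfkl, -0.70 for Pdhb and 0.91 for Dlst. For Pfkp it was 0.44, just past the threshold (Benjamini-Hochberg adjusted p = 0.0489 by edgeR quasi-likelihood). Pfkp had retained-intron shares of 26.4% to 39.5% in the VA-free libraries and 12.5% to 27.3% in the control libraries, which overlapped. For the 10 genes and for the 43 together, an exact two-sided permutation test over the 5 mice gave p = 0.2, the smallest it can give. Reads were divided between transcripts by estimate.

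**Figure D5:**
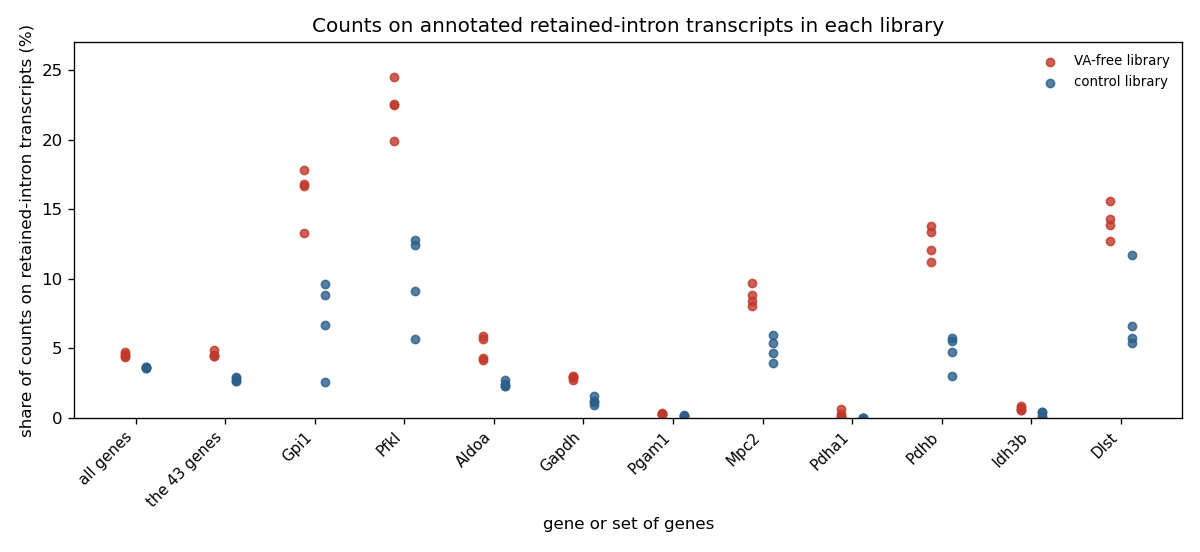
Each point is 1 library, with the share (%) of estimated counts on annotated retained-intron transcripts (y axis) for all genes, for the 43 genes together and for the 10 genes whose diets did not overlap (x axis). The VA-free libraries lie above the control libraries in each column, with the highest shares for Pfkl (19.9% to 24.5%).

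Several of these genes have near-identical copies between which short reads cannot be assigned with certainty. Copies of Gapdh, 92 in number, held 45.6% to 53% of the summed counts of gene and copies in a library, and those of Eno1, mostly Eno1b, held 65.1% to 68.2%. The copies of Pgk1 held 13.3% to 23.4% and those of Pgam1 9.75% to 17.7%. With copies added, 16 genes were lower and 6 higher, the log2 fold change of Eno1 was -0.55, and that of Gapdh was 0.13.

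Of 56 other genes of these pathways, 51 passed the filter, of which 11 were higher and 9 lower, with a median log2 fold change of -0.07. These counts stand beside 18.9% higher and 22.5% lower among all genes tested. Bsg, the chaperone of the lactate transporters, was at 255, 250.1 and 261 CPM against 568 and 497 CPM, with a log2 fold change of -1.06 ± 0.11 SE (Benjamini-Hochberg adjusted p = 0.000689 by edgeR quasi-likelihood). The lactate exporter Slc16a3 (MCT4) was higher at 16.5, 38 and 31.3 CPM against 8.58 and 10.3 CPM (log2 fold change 1.60 ± 0.35 SE). Succinate dehydrogenase subunits Sdhb (log2 fold change -1.22) and Sdhd (-0.95), which feed electrons from the TCA cycle into the respiratory chain, were lower. The subunits Sdha (-0.02) and Sdhc (-0.44) of the same enzyme did not pass. Among regulators of phosphofructokinase, Pfkfb2 was higher (log2 fold change 1.83 ± 0.20 SE), at 17.8, 19.4 and 18.3 CPM against 5.98 and 4.4 CPM, whereas the fructose 2,6-bisphosphatase Tigar was lower (-1.31). Bpgm, the bisphosphoglycerate mutase, was lower (-0.98). The rises also included Pdpr (0.86), which regulates the phosphatase of pyruvate dehydrogenase, the glucose transporter Slc2a10 (0.79) and the mitochondrial malic enzyme Me3 (0.76).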

How the data were processed

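RNA of sorted MuSCs was copied with SMART-Seq v4 and made into Nextera XT libraries, read with 75 bp single-end reads. The authors estimated transcript abundances with Kallisto 0.46.2 on Ensembl 96 (GRCm38) transcripts and deposited estimated counts, unnormalized, for each library. The authors' deposited TPM values are scaled by effective length to one total per library and keep no depth. For their own comparison they used tximport and DESeq2.

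The counts of a gene's transcripts and of a mouse's libraries were summed and rounded. Transcripts without a gene, 0.647% to 0.756% of a library, were left out. The estimated totals of 44831232 to 88650428 keep counting error small for most of the 43 genes, Aldoc excepted. The diets were compared by quasi-likelihood tests in edgeR 4.0.16 (R 4.3.3) after TMM normalization and filterByExpr. Benjamini-Hochberg adjustment was over 17997 genes, with a threshold of 0.05. The procedure was also run on simulated counts of independent genes with a common spread and few changed genes. Such counts lack differences like those between libraries 2A and 2B, so that run does not show how far the calls here hold. The standard error is the log2 fold change divided by the square root of F. Isozyme shares used the mean TPM of a mouse. Copies were matched with blastn 2.17.0 at 95.0% identity over a share of at least 0.5 of the copy. Alternatives were DESeq2 1.42.0, limma 3.58.1 on TPM, filters, length corrections, a replicate block, and fits that left out 1 mouse or 1 library.

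The members and lists were chosen with earlier results of these data known. Values of every mouse were given for genes past the threshold with a log2 fold change of at least 1 in size, for the member of a step with the highest TPM, and for called single-gene steps. Of other pathway genes up to 10 and of regulators up to 5 were named, by size of change among those called with a mean of at least 1 CPM. Beyond these, further glucose transporters and the remaining succinate dehydrogenase subunits were named to complete their sets. Other members were given by range or log2 fold change. Shares of Mpc and Mdh genes, TPM with TMM scaling and protein-coding transcripts alone were added after the data were seen, and so were the retained-intron shares and the motif search.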

Additional observations from a re-analysis of the deposited data

Results flagged for a closer look

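Within each diet, the 4 libraries were examined for a single library far from the others, by the gap to its nearest neighbour relative to the range. Of 86 groups (43 genes in 2 diets), 5 were picked out, and chance picks about 1 in 20 groups of independent values. That rate is not exact here, since libraries of 1 mouse are not independent. In control 2A, Mpc1 was at 409.9 CPM (139 to 166 CPM in the other control libraries), Sucla2 at 394 CPM (123 to 129 CPM) and Mdh2 at 960.2 CPM (387 to 470.2 CPM). Slc2a1 was at 103 CPM in VA-free 2A, the only library of its mouse, and at 51 to 57.6 CPM in the other VA-free libraries. Pgam2 was at 4.71 CPM in VA-free 1B and at 3.13 to 3.22 CPM in the others, all below the lowest control library at 9.61 CPM.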

How the results depend on the processing

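Of the 22 called genes, 8 (Pfkp, Pgam2, Eno3, Ldhb, Mpc1, Pdk4, Cs and Mdh1) stayed past the threshold under each of 23 alternatives (the minimum of 10 CPM left out Pgam2 and Slc2a4), and none of the 22 changed sign. Of the 21 genes not called, 14 passed under at least 1 alternative. Of 300 isozyme shares recomputed, 62 moved by over 1 SD between mice. Depth limits Aldoc, which stayed under 1 CPM.

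The counts of lower and higher genes were 10 and 5 with the length trend removed, and 8 and 20 with TPM at either pseudocount. In the order median log2 fold change of glycolysis and lactate members, of pyruvate entry members and of TCA cycle members, TPM gave medians of 0.16, 0.45 and 0.28 at a pseudocount of 1 and of 0.16, 0.47 and 0.28 at 0.1, with medians of all genes of 0.192 and 0.354. TPM with TMM scaling, where the median of all genes was 0.013, gave 16 and 8 and medians of -0.22, 0.10 and -0.09, and it differs from the first of these fits in scaling alone. The pyruvate entry median was 0.10 with length offsets. The TCA cycle median was -0.24 with a minimum of 10 CPM, -0.05 with the length trend removed and -0.06 with protein-coding transcripts alone. The cause of these shifts was not tested. Leaving out a mouse or library gave 10 to 17 lower and 4 to 10 higher genes, and medians of -0.39 to -0.24, -0.10 to 0.22 and -0.33 to -0.11. The fewest lower and higher genes came without control library 2B, and the most higher genes without control mouse 1.

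With the replicate number as a block (replicate block), 12 genes were lower and 6 higher. Deviations of mice with the same number from their diet means had Pearson r of -0.133 and -0.060 over 9559 genes for the 2 pairs. The deviations of the 2 control mice mirror each other, so these values cannot decide whether a pairing exists. The labels state no pairing, and the numbers were not taken as one.

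Only genes that were not called changed sign, with these log2 fold changes. With TPM at pseudocounts of 1 and 0.1 they were Slc2a1 0.30 and 0.31, Aldoa 0.29 at both, Pgk1 0.03 at both, Pgam1 0.45 at both, Dld 0.45 at both, Pdk1 0.44 and 0.47, Pdk3 0.15 and 0.16, Idh3a 0.20 at both and Idh3b 0.35 at both. TPM with TMM scaling gave Pgam1 0.08, Dld 0.08 and Pdk1 0.10. Length offsets gave Pgam1 0.05, Dld 0.03 and Pdk1 0.10. With the length trend removed, Pfkm was at -0.01, Aldoa at 0.15, Pgam1 at 0.10, Pdha1 at -0.00 and Idh3b at 0.09. A minimum of 10 CPM gave Gapdh -0.03 and Fh1 -0.03, the replicate block Gapdh -0.00, and protein-coding transcripts alone Pgam1 0.01. Over the fits that left out a mouse or library, the log2 fold change of Slc2a1 ran from -0.54 to 0.11, of Pgam1 from -0.07 to 0.06, of Gapdh from -0.18 to 0.29, of Pdk1 from -0.33 to 0.22, of Dld from -0.32 to 0.07, of Pdk2 from -0.03 to 0.55 and of Fh1 from -0.13 to 0.20.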

Other observations

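Of 20 regulators of these pathways, 19 passed the filter, and the VA-free diet had 5 at a higher level and 1 at a lower level. Among all genes tested 18.9% were higher and 22.5% lower. Epas1, the hypoxia-inducible factor 2 alpha, was at 19, 29.3 and 25.6 CPM in the VA-free mice and at 225 and 111 CPM in the control mice (log2 fold change -2.77, standard error 0.31, adjusted p = 0.000801, edgeR quasi-likelihood test with Benjamini-Hochberg adjustment). Epas1 is abundant in endothelial cells, whose 8 markers were lower as well, and the part of those cells was not tested. The glucose-sensing transcription factors Mlxipl (log2 fold change 1.89) and Mlxip (1.16) were higher, as was Ppargc1b (1.75), a coactivator of mitochondrial genes. Foxk2, a forkhead factor known to promote glycolysis, had a log2 fold change of 0.93 and was higher at 40.9 to 56 CPM against 22.2 and 26.9 CPM.

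In control 2A, more of the counts of Dlst lay on another transcript than in the other libraries. The processed transcript Dlst-211 held 49.7% of the counts of Dlst in control 2A and 14.5% to 26.7% in the other 7 libraries, while the protein-coding Dlst-201 held 32.5% and 59.6% to 75%. For Pcx, the coding transcript Pcx-202 held 47.4% in control 2A and 0.0231% to 23.2% in the other libraries.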
